A study of Mus musculus with 19 samples.

Results

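A set of 10 genes that are widely used to mark macrophages and their activation states was followed across 4 groups of mouse skin. They were chosen by name, as Cd68, Adgre1, Csf1r, Mrc1, Cd163, Arg1, Nos2, Chil3, Trem2 and Gpnmb. All 10 are among the 18521 genes of the count matrix, and all 10 were among the 15760 genes that passed the filter on low counts. The skin came from 16 female mice of 1 strain, which carries a single working Ptch1 allele, a tamoxifen-inducible Cre under the keratin 14 promoter (K14-CreER2) and floxed p53 alleles (labelled Ptch1+/- K14-CreER2 p53fl/fl). Healthy skin was from 5 mice that were not induced, aged 128 to 137 days. Early basal cell carcinoma (BCC) skin was from 4 mice aged 278 to 320 days, induced with 3 injections of 300 µg tamoxifen and 1 x-ray dose of 4 Gy, at 130 to 144 days since induction. Induced skin of 3 mice aged 228 to 326 days had 1 treatment with ablative fractional laser, which drills a grid of fine vaporised columns into skin (5% density, 40 mJ per microbeam, 80 to 126 days since induction). Induced skin of 4 mice aged 268 to 326 days had 8 treatments with topical vismodegib, an inhibitor of the Hedgehog pathway protein Smoothened (109 to 137 days since induction). All samples are labelled day 4, were 1 cm2 pieces, and hold epidermis, dermis and appendages together. Age and induction differ together between healthy and induced skin, and no sham or vehicle group was analysed here. Days since induction did not overlap between laser and BCC mice, so time since induction and laser cannot be told apart in that comparison.

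Macrophages are phagocytes that seed the dermis before birth and are added to by blood monocytes, most of all in a wound. In culture, interferon gamma with microbial products drives a classical state with the nitric oxide synthase Nos2, while interleukins 4 and 13 drive an alternative state with the arginase Arg1, the chitinase-like protein Chil3 (Ym1) and the mannose receptor Mrc1. Cells in tissue mix these programmes. A further state, known from fat, plaque and tumours, is marked by the lipid receptor Trem2 and the glycoprotein Gpnmb. None of these genes belongs to macrophages alone. Gpnmb is strongly expressed by pigment cells, Arg1 and Nos2 can be made by keratinocytes, and Chil3 is also made by neutrophils.

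Promoter sequences are shown for 5 genes. Chil3 and its neighbour Chil4 are shown because they are close copies, so that some reads could be shared. Cd68, Trem2 and Mrc1 are shown because each rose after the laser, and Cd68 and Mrc1 also rose after vismodegib. The sequences are RefSeq's, with coordinates on GRCm38.p6, and 6 of the 10 markers had an entry. Each run ends at the base before the annotated start, and is written 5′ to 3′ on the gene's strand. Capitals mark matches, on either strand, to 10 motifs. Searched by letters were the TATA box as TATAAA, the AP-1 site as TGANTCA, the core of the PU.1 site as GAGGAAG, the C/EBP site as TTGCNNAA, the STAT site as TTCNNNGAA, the E-box as CACGTG and the M-box as CATGTG. The NF-kB, STAT6 and interferon response motifs were searched as well. No motif overlapped another in these windows. The windows are Chil3 at chr3:106167565-106167814 (minus strand), Chil4 at chr3:106219480-106219729 (minus strand), Cd68 at chr11:69666171-69666320 (minus strand), Trem2 at chr17:48346251-48346400 (plus strand) and Mrc1 at chr2:14229264-14229413 (plus strand).
Chil3: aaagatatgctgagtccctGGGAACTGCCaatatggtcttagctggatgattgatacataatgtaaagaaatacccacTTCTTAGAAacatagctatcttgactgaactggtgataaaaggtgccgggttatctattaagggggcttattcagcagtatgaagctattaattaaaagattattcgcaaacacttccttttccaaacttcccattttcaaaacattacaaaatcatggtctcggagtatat
Chil4: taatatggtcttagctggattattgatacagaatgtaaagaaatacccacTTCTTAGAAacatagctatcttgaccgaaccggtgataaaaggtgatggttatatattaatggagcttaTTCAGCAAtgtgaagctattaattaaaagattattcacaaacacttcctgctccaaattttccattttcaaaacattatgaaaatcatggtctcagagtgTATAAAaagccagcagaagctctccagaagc
Cd68: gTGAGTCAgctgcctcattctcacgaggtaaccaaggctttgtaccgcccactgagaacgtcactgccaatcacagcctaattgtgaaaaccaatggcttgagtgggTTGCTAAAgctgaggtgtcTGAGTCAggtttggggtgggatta
Trem2: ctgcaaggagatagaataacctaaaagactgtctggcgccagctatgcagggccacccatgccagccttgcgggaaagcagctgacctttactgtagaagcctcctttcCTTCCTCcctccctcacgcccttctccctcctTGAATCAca
Mrc1: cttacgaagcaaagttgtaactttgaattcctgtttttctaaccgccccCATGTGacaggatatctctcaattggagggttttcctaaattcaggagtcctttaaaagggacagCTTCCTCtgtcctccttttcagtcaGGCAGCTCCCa
Of the aligned bases of Chil3 and Chil4, 201 of 221 were identical (91.0%). Both hold the STAT letters TTCTTAGAA, which 7.02% of 32851 RefSeq windows of 250 bases contain in some form. Chil4 has a TATA box letter run at position -31 (12.4% of windows), and the Chil3 window has none. The Chil3 window ends within the stretch that aligns with that run, because the annotated starts differ. The windows therefore do not show whether the copies differ there. Cd68 holds the AP-1 letters at positions -149 and -24 and Trem2 at -9 (6.75% of windows). Trem2 and Mrc1 hold the PU.1 core at -41 and -36 (10.6% of windows). A match in these letters is a description of the sequence and does not show that a factor binds.

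Library totals lay between 27185900 and 33556600 counts. Levels are given as CPM, the counts of a gene relative to a library size scaled by TMM, a trimmed mean of gene ratios. "Rose" and "fell" mean an adjusted p under 0.05 over all 15760 genes in edgeR's quasi-likelihood test, which took all 16 mice in 1 fit. Values per mouse are given in the order of mice 10, 13, 14, 15 and 16 for healthy skin, 3, 4, 5 and 8 for BCC, 2, 7 and 11 for laser, and 1, 6, 9 and 12 for vismodegib. Vismodegib mouse 9 stood apart in scaling, with a raw library size 1.69 times its scaled size against 0.845 to 1.1 in the others. Markers of suprabasal keratinocytes were present in every mouse (summed level at least 3201 CPM). In whole skin, more macrophages and more RNA per macrophage cannot be told apart.

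The comparison of laser with untreated BCC skin asked which of these markers differed between the groups. Of the 10 markers 9 rose and 0 fell, where 6.1% of all genes rose and 1.65% fell. The median log2 fold change over the markers was 2.57, against -0.04 over all genes. In 7 of them every laser mouse was above every BCC mouse, which held for 11.5% of all genes. The general macrophage genes and Trem2 moved most evenly between mice. Arg1 and Nos2 were carried mainly by mouse 11.

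The comparison of vismodegib with BCC called fewer markers, all of which also rose after laser. Cd68, Mrc1, Cd163 and Chil3 rose, 4 of 10 with 0 that fell, where 8.03% of all genes rose and 9.0% fell (1266 and 1418 genes, or 440 and 2164 with library size alone as the scale). In all 4 the mice of the groups did not overlap, which held for 7.63% of all genes. The median over the markers was 0.62, against 0.05 over all genes. In the comparison of BCC with healthy skin 0 of 10 passed in edgeR, where 2.66% of all genes rose and 0.159% fell, and 3 of 10 had an unadjusted p under 0.05. There the median over the markers was -0.73. DESeq2 called 1 of the 10, Cd68 (-0.86, adjusted p = 0.0274), and limma voom 0. Laser and vismodegib are both set against the same 4 BCC mice, so their fold changes share that group.

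**Figure D1:**
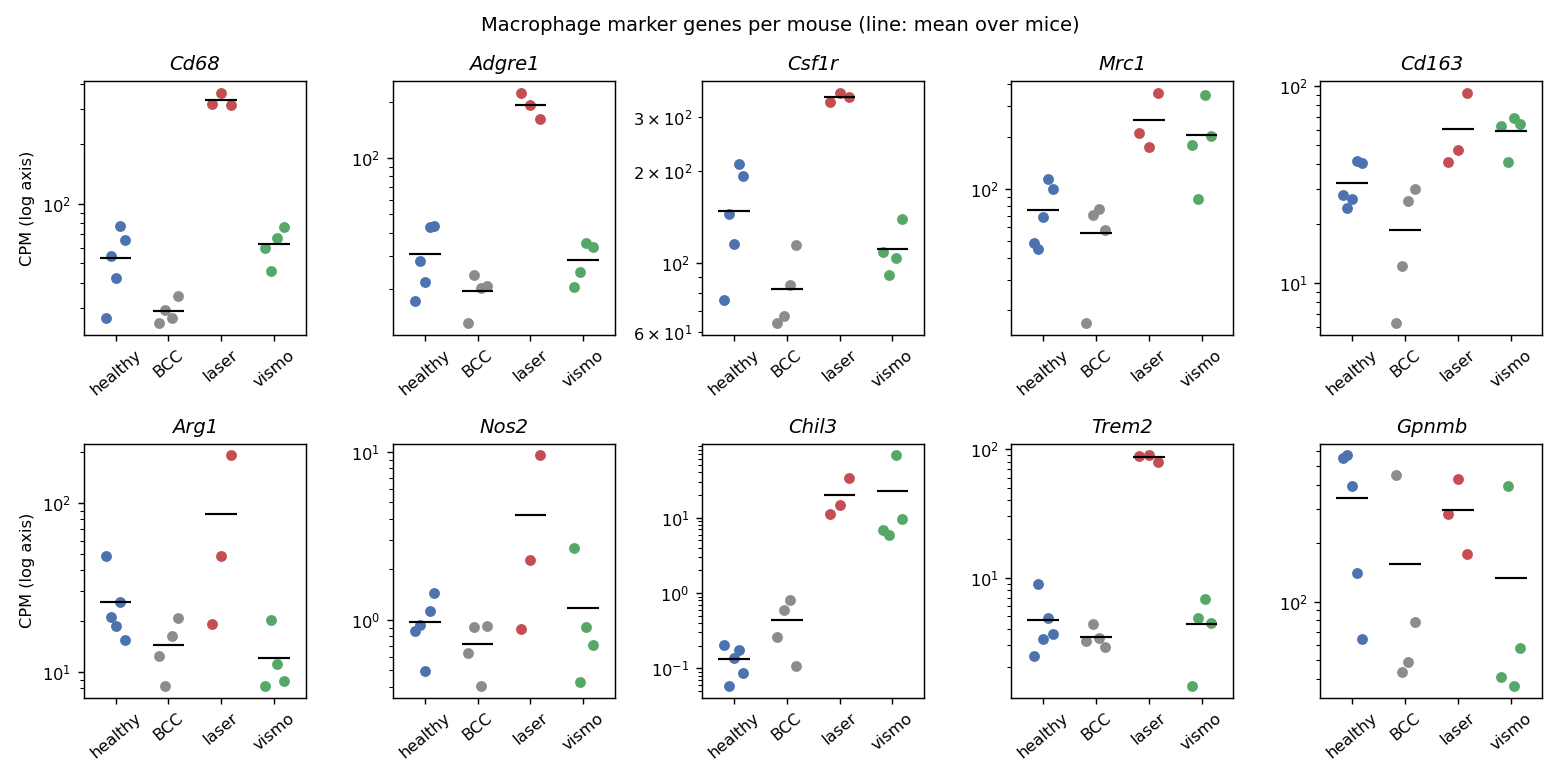
Level of each of the 10 marker genes in each mouse (CPM, log axis), by group, with a line at the group mean. Cd68, Adgre1, Csf1r and Trem2 stand clear of all other mice in the 3 laser mice, Chil3 is high in both treated groups, and Gpnmb varies more within groups than between them.

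Cd68, a glycoprotein of lysosomes, is the broadest of the markers. Its level was 26.5, 54.3, 42.3, 77.5 and 65.7 CPM in healthy skin and 25.0, 29.3, 26.6 and 34.4 in BCC. It was 318, 361 and 313 CPM after laser, and 59.6, 45.6, 67.4 and 76.5 after vismodegib. All laser mice lay above every other mouse, and all vismodegib mice lay above every BCC mouse but within the healthy range. Cd68 rose 11.5-fold after laser (log2 fold change 3.52, SE 0.31, edgeR adjusted p = 9.41e-06) and 2.16-fold after vismodegib (1.11, SE 0.27, adjusted p = 0.0126). The vismodegib call ended with library size alone as the scale (0.74, adjusted p = 0.089), which shifts the median of all genes by -0.35 in that comparison. Between BCC and healthy skin Cd68 stood at -0.89 (SE 0.26, adjusted p = 0.0913).

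Adgre1 encodes F4/80, the surface receptor by which mouse macrophages are commonly stained. Healthy mice had 17.3, 28.1, 21.7, 43.0 and 43.6 CPM and BCC mice 13.1, 23.7, 20.2 and 20.8. Laser mice had 224, 192 and 162 CPM and vismodegib mice 20.4, 24.6, 35.3 and 33.6. The laser mice were far above the rest, and the vismodegib and BCC mice overlapped. Adgre1 rose 9.9-fold after laser (3.31, SE 0.33, adjusted p = 2.47e-05), and after vismodegib it stood at 0.55 (SE 0.29, adjusted p = 0.207).

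Csf1r encodes the receptor for the growth factors CSF1 and IL-34, on which most macrophages and Langerhans cells of skin depend. Its level was 75.8, 145, 116, 210 and 193 CPM in healthy mice and 63.8, 67.3, 85.1 and 115 in BCC. After laser it was 335, 360 and 348 CPM, and after vismodegib 109, 91.6, 104 and 140. The laser mice again lay above every other mouse, at a smaller distance. Csf1r rose 4.2-fold after laser (2.07, SE 0.31, adjusted p = 0.000454) and stood at 0.42 (SE 0.28, adjusted p = 0.316) after vismodegib. As Langerhans cell markers 6 genes were taken, Cd207, Cd74, Epcam, Gfra2, Mfge8 and Cldn1. In BCC Cd207 was at 23.0 CPM, against 552 for Cldn1, 467 for Cd74 and 293 for Epcam, so the list is not a measure of Langerhans cells alone. The mean log2 level of the 6 markers was 7.0 to 7.49 in BCC and 6.14 to 6.94 after laser, lower in every laser mouse. Their summed level was 1344 to 1742 CPM in BCC and 893 to 1815 after laser. Of those markers 2 fell after laser and 0 rose, and their part in the Csf1r value was not tested.

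Trem2, a receptor for lipids and cell debris, showed the widest separation between the treatments. Healthy mice had 2.45, 8.98, 3.34, 4.83 and 3.64 CPM and BCC mice 3.19, 4.32, 3.36 and 2.86. Laser mice had 89.5, 89.9 and 80.0 CPM, and vismodegib mice 1.43, 4.81, 6.85 and 4.45. The 3 laser mice lay close together, and the vismodegib mice spread on both sides of the BCC mice. Trem2 rose 25.2-fold after laser (4.65, SE 0.48, adjusted p = 3.05e-05) and stood at 0.35 after vismodegib (SE 0.41, adjusted p = 0.595; -0.07 with library size alone). The direct comparison of the treatments gave a 19.8-fold higher level after laser (4.30, SE 0.47, adjusted p = 0.000145).

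Gpnmb, the partner of Trem2 in many published macrophage signatures, did not move with it. Its level was 556, 571, 394, 141 and 63.8 CPM in healthy mice and 454, 43.5, 48.5 and 78.6 in BCC. It was 283, 432 and 176 CPM after laser and 40.6, 397, 36.6 and 57.6 after vismodegib. BCC mouse 3 was above and vismodegib mouse 6 within the laser range, while the other mice of those groups were below it. No comparison passed, and laser against BCC stood at 0.93 (SE 0.98, adjusted p = 0.661). The mean log2 level of 8 melanocyte markers was 6.18 in BCC mouse 3 and 5.9 in vismodegib mouse 6, against -0.2 to 0.41 in the other BCC mice and -0.23 to 2.75 in the other vismodegib mice. In the laser mice that level was 0.21 to 0.71 and their summed melanocyte markers 15.4 to 22.5 CPM, so their Gpnmb stood beside low pigment cell markers. Mice 3 and 6 also had the highest growing-hair scores of their groups (8.91 and 9.07). With the melanocyte score as a covariate Gpnmb was called in laser against BCC (2.33, adjusted p = 0.00559), as it was with the growing-hair score (3.36, adjusted p = 0.00319). Without BCC mouse 3 it stood at 2.38 (adjusted p = 0.159). With the growing-hair and melanocyte scores it was also called in laser against vismodegib (3.29 and 3.05, adjusted p = 0.00267 and 0.00231) and against healthy skin (3.41 and 2.69, adjusted p = 0.0112 and 0.0152), where it stood at -0.22 without them. Growing-hair scores were 0.08 to 4.27 after laser and 5.74 to 9.84 in healthy skin, and melanocyte scores 0.21 to 0.71 and 2.83 to 6.68. The adjusted values of laser against healthy skin therefore compare no mice of like score.

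**Figure D2:**
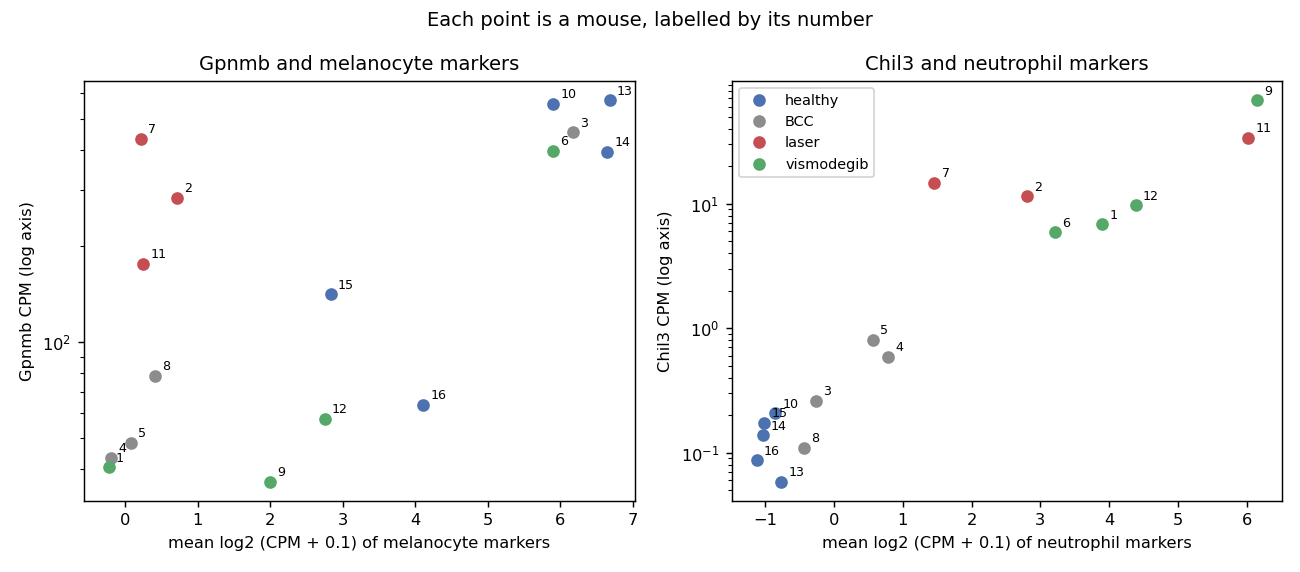
Left, Gpnmb (CPM, log axis) against the mean log2 (CPM + 0.1) of 8 melanocyte markers, and right, Chil3 (CPM, log axis) against that of 10 neutrophil markers, with each point a mouse labelled by its number. The 3 laser mice have Gpnmb of 176 to 432 CPM at melanocyte scores of 0.21 to 0.71, and the mice with the highest Chil3, 9 and 11, have the highest neutrophil scores, 6.15 and 6.02.

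Of the markers tied to alternative activation, Chil3 changed most. It encodes Ym1, a secreted chitinase-like protein without chitinase activity. Healthy mice had 0.207, 0.0583, 0.138, 0.174 and 0.0867 CPM, which is 2 to 7 counts per mouse, and BCC mice had 0.261, 0.588, 0.808 and 0.109 CPM. Laser mice had 11.4, 14.7 and 33.8 CPM, and vismodegib mice 6.83, 5.87, 67.7 and 9.7. Every treated mouse was above every untreated one, and mouse 9 held the highest value. Chil3 rose 45.3-fold after laser (5.50, SE 0.89, adjusted p = 0.000873) and 50.8-fold after vismodegib (5.67, SE 0.88, adjusted p = 0.000919). Without mouse 9 the vismodegib value was 4.11 (adjusted p = 0.000814). Chil3 is also a gene of neutrophils, and the summed level of 10 neutrophil markers was 25.9 to 137 CPM in BCC, 100 to 2612 after laser and 2426 to 49410 after vismodegib. Most of that sum was S100a8 and S100a9, with 717505 and 844327 counts over all mice, against 27881 for the next, Csf3r. Which cells of this skin made S100a8 and S100a9 was not tested, so the sum cannot be read as neutrophil RNA alone. Ly6g, the most specific of the 10, held 0 counts in the healthy and BCC mice. The part of neutrophil RNA in the Chil3 levels was not tested.

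Chil4 (Ym2) is a close copy of Chil3, and whether reads were shared between them was not tested. Their longest coding transcripts are 1539 bases each and 94.4% identical, and 3.75% of the 100-base windows of Chil3 occur unchanged in Chil4. Chil4 stood at 0.377, 0.0882, 0.684 and 0.136 CPM in BCC and 0.412, 0.549 and 0.14 after laser. It stood at 0, 6.12, 0.425 and 5.06 CPM after vismodegib. The Chil4 level was below that of Chil3 in all laser mice, while in vismodegib mouse 6 it exceeded it (6.12 against 5.87 CPM). In mouse 12 the paired libraries gave Chil4 levels of 9.78 and 0.0625 CPM, beside Chil3 at 11.6 and 7.46. The deposited values are expected counts from RSEM. How accurately these divide reads between the copies was not tested, so both levels are uncertain.

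Mrc1, the mannose receptor CD206 of dermal macrophages, rose after both treatments. It stood at 48.7, 44.9, 69.0, 114 and 100 CPM in healthy mice and 16.8, 70.4, 76.3 and 58.3 in BCC. Laser mice had 211, 174 and 359 CPM and vismodegib mice 179, 87.1, 347 and 203. All treated mice exceeded all BCC mice. The rise was 4.47-fold after laser (2.16, SE 0.51, adjusted p = 0.0136) and 3.68-fold after vismodegib (1.88, SE 0.48, adjusted p = 0.0158). The laser call ended without laser mouse 11 (1.76, adjusted p = 0.0947), and the vismodegib value was 1.53 (adjusted p = 0.0444) without mouse 9.

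Cd163, the scavenger receptor for haemoglobin bound to haptoglobin, also rose after both treatments. It was at 28.1, 24.2, 26.8, 41.6 and 40.7 CPM in healthy mice and 6.26, 12.2, 26.1 and 30.0 in BCC. It was at 41.4, 47.6 and 92.6 CPM after laser and 62.6, 41.1, 68.7 and 64.1 after vismodegib. Treated and BCC mice did not overlap, though BCC mice 3 and 4 were low among their own group. Cd163 rose 3.25-fold after laser (1.70, SE 0.43, adjusted p = 0.0213) and 3.17-fold after vismodegib (1.67, SE 0.41, adjusted p = 0.0127). The laser call ended without laser mouse 11 (1.23, adjusted p = 0.183), without BCC mouse 4 (1.54, adjusted p = 0.0682) and with days since induction as a covariate (2.03, adjusted p = 0.0879).

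Arg1, which converts arginine to ornithine, separated the treatments unevenly. Healthy mice had 48.7, 21.3, 18.7, 25.9 and 15.5 CPM and BCC mice 12.5, 8.26, 16.3 and 20.8. Laser mice had 19.2, 48.9 and 192 CPM, and vismodegib mice 8.3, 20.4, 11.1 and 8.83. Laser mouse 2 lay within the BCC range and mouse 11 far above it. Arg1 rose by a log2 fold change of 2.59 after laser (SE 0.61, adjusted p = 0.0138), and stood at -0.25 after vismodegib. Without mouse 11 it was at 1.22 (adjusted p = 0.282), and limma voom also ended the call (2.11, adjusted p = 0.0506). Its relative Arg2 shared no 100-base window with Arg1 (0.0%).

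Nos2, the inducible nitric oxide synthase, rested on few reads, with 13 to 34 counts per BCC mouse. Its level was 0.857, 0.933, 0.497, 1.13 and 1.45 CPM in healthy mice and 0.637, 0.911, 0.404 and 0.926 in BCC. It was 0.888, 2.26 and 9.54 CPM after laser and 2.66, 0.426, 0.903 and 0.707 after vismodegib. The laser rise rested on mouse 11, whose paired libraries gave 6.37 and 13.1 CPM, since mouse 2 lay within the BCC range. The log2 fold change was 2.55 (SE 0.71, adjusted p = 0.0363) after laser, or 1.10 (adjusted p = 0.492) without mouse 11, and 10 of 28 alternative settings ended the call. Mouse 11 also had a neutrophil score of 6.02, against 2.81 and 1.46 in the other laser mice, and the part of those cells in its Arg1 and Nos2 was not tested.

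**Figure D3:**
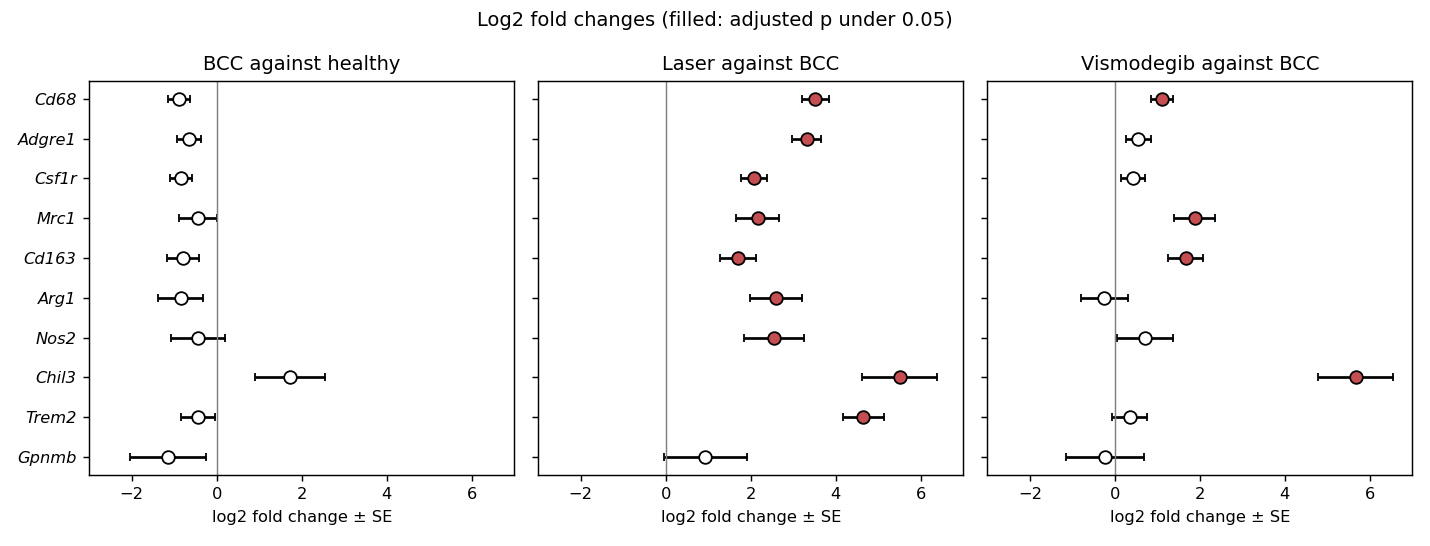
Log2 fold change (x axis) with its SE for the 10 markers in BCC against healthy, laser against BCC and vismodegib against BCC, filled where the edgeR adjusted p was under 0.05. After laser 9 markers are filled and to the right of 0, after vismodegib Cd68, Mrc1, Cd163 and Chil3 are, and in BCC against healthy none is.

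Laser and vismodegib skin were then compared directly. Of the 10 markers 5 were higher after laser and 0 were lower, where 6.69% of all genes were higher and 2.46% lower (1054 and 388 genes, or 1366 and 194 with library size alone). These were Cd68 (2.41, SE 0.29, adjusted p = 0.000188), Adgre1 (2.76, SE 0.32, adjusted p = 0.000173), Csf1r (1.65, SE 0.30, adjusted p = 0.00329), Arg1 (2.84, SE 0.61, adjusted p = 0.00873) and Trem2. The call of Arg1 ended without mouse 11 (1.49, adjusted p = 0.102). The genes that vismodegib raised showed no call between the treatments, with Mrc1 at 0.28 (SE 0.50, adjusted p = 0.752), Cd163 at 0.03 (SE 0.43, adjusted p = 0.969) and Chil3 at -0.17 (SE 0.76, adjusted p = 0.909). A missed threshold does not show that the levels were equal. Cd68, by contrast, rose after both treatments and stood 5.31-fold higher after laser.

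Against healthy skin, 6 of 10 markers were higher after laser, where 7.95% of all genes were higher and 1.29% lower. They were Cd68 (6.21-fold), Adgre1 (6.26-fold), Csf1r (2.35-fold), Mrc1 (3.29-fold), Trem2 (18.6-fold) and Chil3 (log2 fold change 7.23). The Csf1r call (1.23, adjusted p = 0.010) ended with the growing-hair score (0.75, adjusted p = 0.236) or the melanocyte score (0.80, adjusted p = 0.228) as a covariate. The Mrc1 call (1.72, adjusted p = 0.029) held in 20 of 27 alternative settings. It ended with the growing-hair score (0.66, adjusted p = 0.545) or the melanocyte score (0.34, adjusted p = 0.79) as a covariate, and without laser mouse 11 (1.31, adjusted p = 0.205) or 2 (1.83, adjusted p = 0.0529) or healthy mouse 10, 13 or 14 (1.58 to 1.68). Laser and healthy mice did not overlap in either score, so these covariates cannot be told apart from the group. Arg1 (1.74, adjusted p = 0.0623) and Nos2 (2.12, adjusted p = 0.0514) did not pass. After vismodegib 2 of 10 were higher than in healthy skin, where 7.57% of all genes were higher and 4.07% lower (1193 and 641 genes, or 590 and 895 with library size alone). These were Chil3 (7.40, SE 0.88, adjusted p = 7.01e-05) and Mrc1 (1.44, SE 0.44, adjusted p = 0.0454), the latter called in 10 of 27 alternative settings. Cd68 after vismodegib stood at 0.23 (SE 0.25, adjusted p = 0.559) against healthy skin.

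To compare markers in the same mice, each was divided by Cd68 (log2 ratio of CPM, with 0.1 added to both). Exact two-sided permutation tests over mice were adjusted over 54 comparisons, and none passed. The smallest adjusted p was 0.147, and with 3 against 4 mice no raw p under 0.0571 is possible. The values are therefore described. Trem2 to Cd68 was -1.93 ± 0.09 after laser (SD, n = 3), -3.04 ± 0.35 in BCC (n = 4) and -3.96 ± 0.96 after vismodegib (n = 4), with the laser mice above all mice of both other groups. Csf1r to Cd68 was 0.07 ± 0.08 after laser, 0.84 ± 0.16 after vismodegib, 1.49 ± 0.26 in BCC and 1.47 ± 0.06 in healthy skin (n = 5). Both treated groups lay below all untreated mice in that ratio. Mrc1 to Cd68 was -0.48 ± 0.64 after laser and 1.57 ± 0.60 after vismodegib, a difference of -2.05 without overlap. Cd163 to Cd68 was -2.54 ± 0.68 after laser and -0.08 ± 0.15 after vismodegib, and Chil3 to Cd68 -4.20 ± 0.87 and -2.25 ± 1.51, again without overlap. In laser against vismodegib Cd68 itself stood at 2.41, and Mrc1, Cd163 and Chil3 at 0.28, 0.03 and -0.17. The differences in these 3 ratios thus mostly restate that of Cd68. Adgre1 to Cd68 overlapped between laser (-0.79 ± 0.25) and BCC mice (-0.59 ± 0.29).

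**Figure D4:**
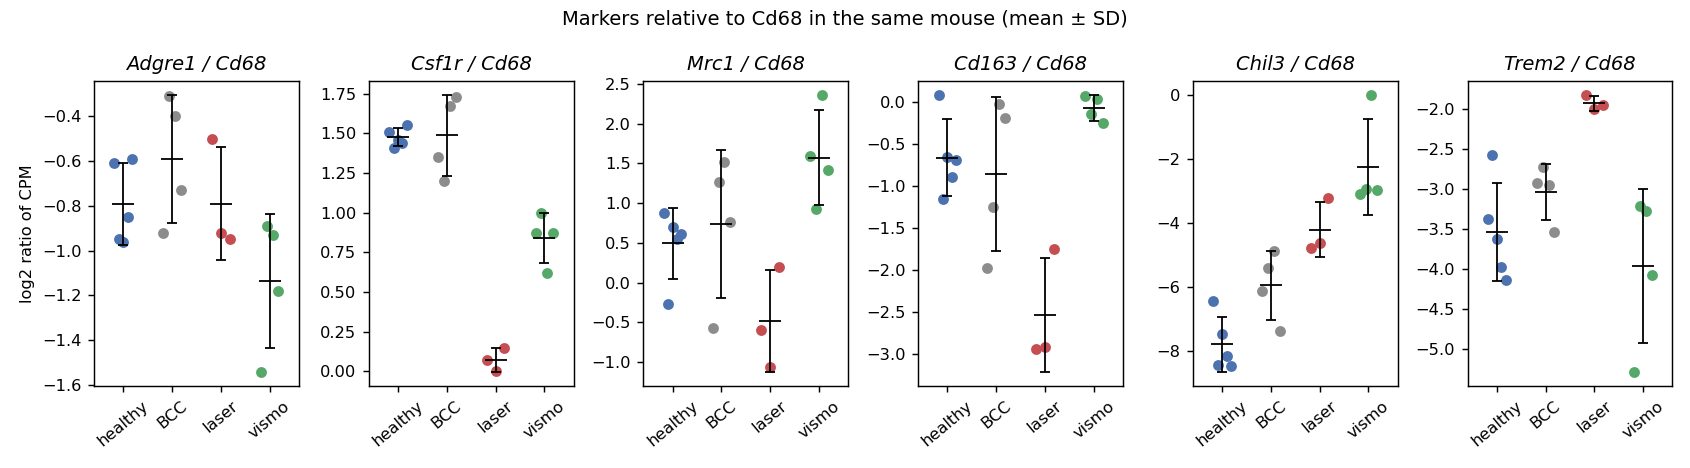
Log2 ratio of 6 markers to Cd68 in the same mouse (y axis), by group, with mean and SD. The laser mice are the highest for Trem2 and the lowest for Csf1r, and the vismodegib mice lie above the laser mice for Mrc1, Cd163 and Chil3.

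The remaining genes of each programme were taken from 9 lists, with the 10 markers left out. Their counts stand beside 6.1% of all genes that rose after laser and 8.03% after vismodegib, and beside medians over all genes of -0.04 and 0.05. Among genes of the classical state, 10 of 19 rose after laser and 4 after vismodegib, with medians of 1.63 and 0.75. The interferon-induced chemokine gene Cxcl10 rose after laser (3.37, SE 0.45, adjusted p = 0.0002) and stood at -0.20 after vismodegib (adjusted p = 0.787). Cd38, an enzyme that consumes NAD, rose after laser (2.97, SE 0.38, adjusted p = 0.000143). The formyl peptide receptor gene Fpr2, which neutrophils also express, rose after laser (5.48) and vismodegib (4.42, adjusted p = 0.00489). Il6 rose to 2.11 CPM after laser and 2.83 after vismodegib, from 0.161 in BCC.

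Among genes of the alternative state, 5 of 16 rose after laser and 3 after vismodegib, with medians of 0.42 and 0.70. The lectin gene Clec10a (2.05 and 1.06), the interleukin 1 antagonist Il1rn (1.74 and 1.64) and the receptor chain Il4ra (1.51 and 1.81) rose after both. Cd200r1, an inhibitory receptor, rose after laser (2.68, SE 0.58, adjusted p = 0.00888). The resistin-like gene Retnla, named after its values were seen because it is a standard marker of that state, was at -0.38 after laser (adjusted p = 0.86).

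Genes that accompany Trem2 in lipid-handling macrophages rose in 10 of 18 cases after laser and 8 after vismodegib, with medians of 1.44 and 0.48. The cathepsin genes Ctsl (2.51, SE 0.24, adjusted p = 1.97e-05) and Ctsb (2.03, SE 0.28, adjusted p = 0.000232) rose after laser, as did the lipid droplet gene Plin2 (1.96). After vismodegib Fabp5, a fatty acid carrier that keratinocytes also make, increased from a level of 958 to 7253 CPM (log2 fold change 2.92, SE 0.61, adjusted p = 0.00496), and Plin2 by 1.23. Spp1 (osteopontin), named after its values were seen, rose after laser (3.96, SE 0.64, adjusted p = 0.000906) and stood at -0.34 after vismodegib. The summed level of 8 suprabasal keratinocyte markers was 5930 to 8713 CPM in BCC and 22290 to 67749 after vismodegib, and its part in the Fabp5 value was not tested. Of 11 signalling partners of TREM2 and CSF1R, 4 rose after laser and 3 after vismodegib. Tyrobp, the adaptor that TREM2 signals through, rose after laser (3.18, SE 0.63, adjusted p = 0.00464) and vismodegib (1.99, SE 0.59, adjusted p = 0.0305). The kinase gene Syk rose by 2.55 and 0.89. Trem2 itself stood at 0.35 after vismodegib (edgeR adjusted p = 0.595). Of 10 neutrophil markers 6 rose after laser and 10 after vismodegib. The part of other myeloid cells in the Tyrobp and Syk values was not tested.

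Of the monocyte and recruited macrophage genes, 16 of 17 rose after laser and 11 after vismodegib (medians 3.89 and 1.97). The Fc receptor genes Fcgr1 (5.50 and 2.35) and Fcgr4 (5.86 and 3.31) and the complement receptor C5ar1 (4.00 and 1.67) rose after both. Fcgr4 and C5ar1 are expressed by neutrophils as well. Mean log2 levels of the 10 neutrophil markers were -0.43 to 0.79 in BCC, 1.46 to 6.02 after laser and 3.21 to 6.15 after vismodegib. Their summed level, given above, overlapped between laser and BCC mice. Resident dermal macrophage genes rose in 8 of 16 cases after laser and 6 after vismodegib, where 1 fell. The scavenger receptor gene Stab1 (2.66 and 1.43) and the chemokine gene Pf4 (3.31 and 2.01) rose after both. Stab1 is also expressed by endothelium, of whose 8 tested markers 5 rose after laser (median 1.39) and 0 after vismodegib (median 0.38). Their mean log2 level was 2.42 to 3.47 in BCC, 3.62 to 4.65 after laser and 2.63 to 3.64 after vismodegib, and its part in the Stab1 values was not tested. Folr2, a folate receptor, rose after laser (3.33, SE 0.46, adjusted p = 0.000272), and Mertk, which clears dying cells, fell after vismodegib (-1.44, SE 0.28, adjusted p = 0.00315). In that list 2 genes fell in BCC against healthy skin, Folr2 from 34 CPM to 11.5 (log2 fold change -1.56, SE 0.41, adjusted p = 0.0499) and the lectin gene Cd209g from 13.7 to 4.63 CPM (-1.57, SE 0.40, adjusted p = 0.0477). No gene of the other 8 lists passed in that comparison.

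On the CSF1 receptor axis 4 of 8 genes rose after laser and 2 after vismodegib. The myeloid transcription factor Spi1 (PU.1) rose 2.45 and 1.19, the cytokine receptor chain Csf2rb 2.09 and 1.72, and Irf8 1.83 after laser. Of 14 polarising cytokines and receptors, 5 rose after each treatment. Il33, an alarmin that promotes type 2 responses, increased from a level of 23.1 CPM to 97.6 after laser (2.08, SE 0.59, adjusted p = 0.041) and to 238 after vismodegib (3.37, SE 0.59, adjusted p = 0.00195). Il10 (3.24) and its receptor Il10ra (2.42) rose after laser. In arginine metabolism 0 of 7 further genes rose after either treatment, and the cationic transporter Slc7a2 fell after vismodegib (-1.21, SE 0.38, adjusted p = 0.0392).

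**Figure D5:**
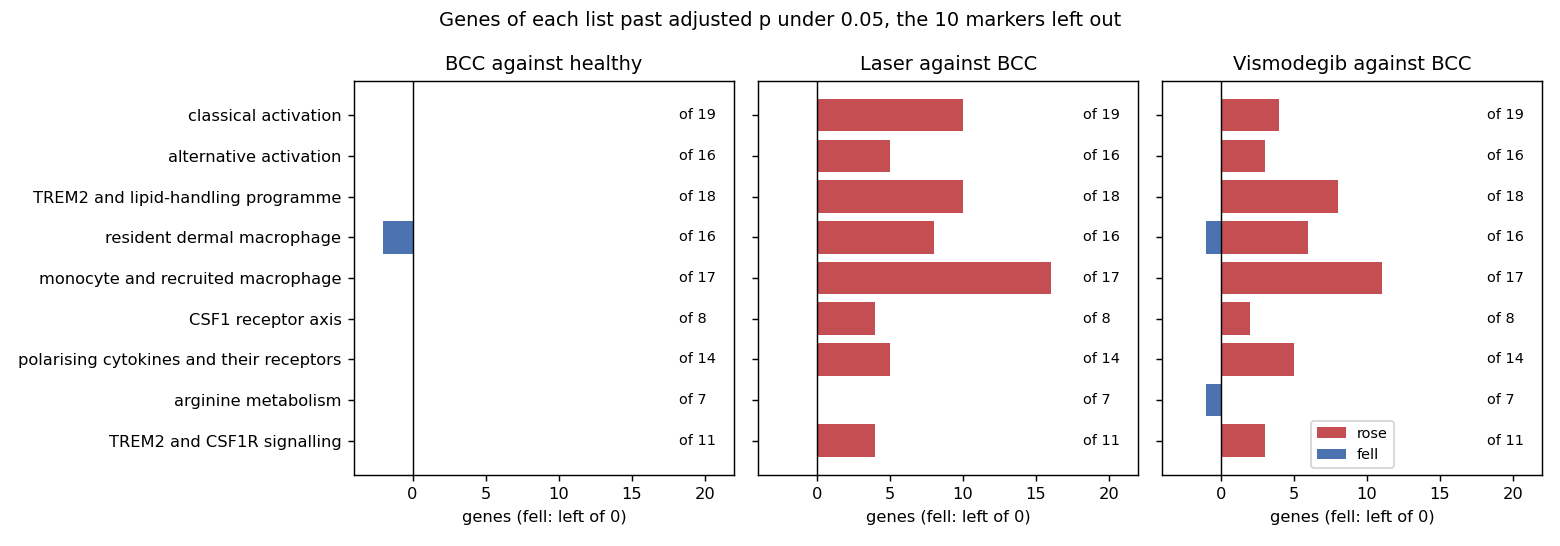
Number of genes of each list, without the 10 markers, that rose (right of 0) or fell (left of 0) in 3 comparisons at an edgeR adjusted p under 0.05, with the number tested at the right. The monocyte and recruited macrophage list has the most rises after laser (16 of 17) and after vismodegib (11 of 17).

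For each marker the 3 genes with the most similar profile over the 16 mice were listed among 14003 genes, by the mean absolute difference of log2 levels after each was centred. Cd68 was closest to P2ry6 (0.180), Cyth4 (0.188) and Hk3 (0.212), and Adgre1 to Lpxn (0.225), Cd68 itself (0.228) and Tbxas1 (0.247). Csf1r was nearest to Nrros (0.142), Tmem106a (0.150) and Cd37 (0.158). These 3 markers had the closest companions of the 10, together with Mrc1. Mrc1 was nearest to Gda (0.195), and Cd163 to Lbp (0.327), Serpina3n (0.333) and Nfkbia (0.350). Trem2 was nearest to Clec12a (0.415), Ifit3 (0.419) and Cd22 (0.459). Nos2 had the endothelial cadherin gene Cdh5 (0.390) among its closest genes, and Chil3 had Cstdc4 (0.654) and Wfdc12 (0.705). Arg1 (nearest Ankrd33b at 0.493), Gpnmb (Dusp2 at 0.564) and Chil3 had the most distant nearest genes. The mice of a group share their treatment, so likeness over 16 mice partly restates the group differences.

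Paired libraries of a single mouse showed how far these genes varied without a change of animal. Over the 10 markers the higher library exceeded the lower by 1.01 to 2.06 times in laser mouse 11, 1.0 to 2.02 times in vismodegib mouse 12 and 1.41 to 2.83 times in healthy mouse 16. The labels give 128 days as the age for 1 library of mouse 16 and 135 for the other, so whether both come from the same animal is uncertain.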

How the data were processed

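Poly-A RNA of whole skin was sequenced from directional libraries prepared with oligo dT enrichment, per the labels' protocols, in 19 libraries of 16 mice. The authors deposited a matrix of expected counts per gene, which is not normalised. Per the submitters' processing notes it was made with Bowtie2 and RSEM on GRCm39, and the sources used here state no version, annotation or strand setting. Reads of a gene may therefore include those of an antisense partner. Of the deposited values 3.42% are not whole, and they were rounded. The libraries of mice 11, 12 and 16 were summed per mouse, so that the replicate is the mouse, as numbered in the labels. Genes were filtered with filterByExpr, and 15760 of 18521 were tested in edgeR 4.0.16 (R 4.3.3) with TMM scaling, robust quasi-likelihood F tests and Benjamini-Hochberg adjustment over these genes. The common dispersion was 0.178. The test was tried on simulated counts with known changes. Log scores and ratios used a pseudocount of 0.1 CPM.

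The 10 markers, the 9 pathway lists and the 10 lists of other cell types were chosen with earlier results of these data known. The text names the 10 markers in every comparison. From each pathway list it may name up to 3 further genes with the smallest p among those with adjusted p under 0.05 in the comparisons of BCC with healthy and of each treatment with BCC. For each marker it may name the 3 genes most like it, among genes with a mean of at least 1 CPM and no clone name, and it names the copies Chil4 and Arg2. Not all of these are printed.

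Fits were repeated with each mouse left out in turn, in DESeq2 1.42.0, and in limma voom (limma 3.58.1) with the mouse as a random effect. Scaling was changed to RLE or to the plain library size. The low-count filter was dropped or replaced by 1 CPM in at least 3 mice. The replicate unit was changed to the 19 libraries or to the first library of a mouse. The replicate number was added as a block, and growing-hair scores, melanocyte scores or days since induction as covariates. Ratios were repeated with other pseudocounts and denominators.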

Additional observations from a re-analysis of the deposited data

Results flagged for a closer look

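In 30 sets of values, each of a gene in a group of 4 or 5 mice, 3 held a mouse far from the others of its group (Dixon's test at its 95% critical value). Chance gives about 1 in 20 such sets. Chil3 was at 67.7 CPM in vismodegib mouse 9, with 5.87 to 9.7 CPM in the other vismodegib mice. Mouse 9 also had the highest neutrophil score of all mice, 6.15, and the part of this in its Chil3 level was not tested. Gpnmb was at 454 CPM in BCC mouse 3, with 43.5 to 78.6 CPM in the other BCC mice. It was at 397 CPM in vismodegib mouse 6, with 36.6 to 57.6 CPM in the other vismodegib mice. Both of these mice had the highest melanocyte score of their group, 6.18 and 5.9.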

How the results depend on the processing

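Among the recomputed fold changes of the markers, 1525 kept their direction and their side of the threshold, 45 lost a call, 34 gained one with the same sign and 46 changed sign. Of those that changed sign 2 passed, Gpnmb in laser against healthy with the growing-hair and melanocyte covariates (adjusted p = 0.0112 and 0.0152). Laser and healthy mice did not overlap in either of those scores. In laser against BCC, Cd68, Adgre1, Csf1r, Chil3 and Trem2 were called in all 28 alternatives. In vismodegib against BCC this held for Mrc1, Cd163 and Chil3. The causes of the shifts below were not tested.

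Numbers of genes changed were 445 (BCC against healthy), 1221 (laser against BCC), 2684 (vismodegib against BCC), 1442 (laser against vismodegib), 1456 (laser against healthy) and 1834 (vismodegib against healthy). DESeq2 gave 911 for BCC against healthy, with 1 marker called, 1977 for laser against BCC, 2507 for laser against vismodegib, 2479 for laser against healthy and 3136 for vismodegib against healthy. It also lowered the share of genes that rose among those that changed, from 94.4% to 80.7% (BCC against healthy), 78.7% to 63.0% (laser against BCC), 73.1% to 60.0% (laser against vismodegib) and 86.1% to 65.1% (laser against healthy). All 19 libraries as replicates gave 2068 genes for laser against BCC, 2612 for laser against vismodegib, 3058 for laser against healthy, 3425 for vismodegib against healthy, 1 marker in BCC against healthy, and signs reversed for Chil3 (0.31, laser against vismodegib) and Nos2 (-0.02, vismodegib against healthy). The growing-hair covariate gave 1035 genes and 3 markers in BCC against healthy, where Cd68, Csf1r and Adgre1 were lower, and 1 marker in vismodegib against healthy. With it Gpnmb stood at 0.05 (BCC against healthy), 0.07 (vismodegib against BCC), 3.41 (laser against healthy) and 0.12 (vismodegib against healthy), Cd163 at -0.09 (laser against vismodegib), and Cd68 at -0.13 and Nos2 at -0.06 (vismodegib against healthy). The melanocyte covariate gave 4 markers in BCC against healthy, where Cd68 (-1.18), Csf1r (-1.16), Mrc1 (-1.65) and Cd163 (-1.69) were lower. It also gave 696 genes in laser against healthy and 1 marker in vismodegib against healthy. Gpnmb then stood at 0.36 (BCC against healthy) and 2.69 (laser against healthy), Mrc1 at -0.33 and Cd163 at -0.46 (laser against vismodegib), Cd163 at -0.12 (laser against healthy), and Nos2 at -0.47 and Trem2 at 0.05 (vismodegib against healthy). Days since induction as a covariate gave 715 genes in laser against BCC and 1535 in vismodegib against BCC, Arg1 at 0.03 (vismodegib against BCC) and Chil3 at 0.91 (laser against vismodegib). Library size alone gave Trem2 at -0.07 (vismodegib against BCC), Chil3 at 0.38 (laser against vismodegib), and 1 marker, Cd68 at -0.06 and Nos2 at -0.01 in vismodegib against healthy. It shifted the median of all genes by -0.14 (laser against BCC), -0.35 (vismodegib against BCC), 0.22 (laser against vismodegib) and -0.27 (vismodegib against healthy). Limma voom gave Chil3 at 0.69 (laser against vismodegib), Gpnmb at 0.13 (laser against healthy), and 1 marker and Nos2 at -0.07 in vismodegib against healthy. A filter of 1 CPM in 3 mice left 1 marker there.

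Deviations from the group means correlated at -0.378 to 0.631 (median -0.149) over 21 pairs of mice with the same replicate number, 7 of them above 0.1. Over 74 other pairs the median was -0.015. With so few mice per group this check cannot settle whether replicate numbers pair the mice. With the replicate number as a block 1040 genes changed in vismodegib against healthy, with Adgre1 at 0.10, and Chil3 was at 0.11 in laser against vismodegib. In laser against BCC 7 markers were called under the block, without Arg1 (2.39, adjusted p = 0.0671) and Nos2 (2.48, adjusted p = 0.114).

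With each mouse left out in turn, the numbers of genes changed were 265 to 798, 597 to 1698, 1503 to 3418, 732 to 1832, 799 to 1883 and 951 to 3490, in the order of comparisons given first. The lowest values for laser against BCC and laser against healthy came without laser mouse 11. Markers called were 0 to 2, 5 to 9, 4, 4 to 6, 5 to 8 and 1 to 3. Fold changes that crossed 0 were Nos2 (-0.10 to 0.98) and Gpnmb (-1.80 to 1.23) in vismodegib against BCC, Mrc1 (-0.06 to 0.63), Cd163 (-0.39 to 0.30) and Chil3 (-0.74 to 1.38) in laser against vismodegib, and Gpnmb (-0.59 to 0.04) in laser against healthy. In vismodegib against healthy they were Adgre1 (-0.31 to 0.05), Nos2 (-0.53 to 0.54) and Trem2 (-0.38 to 0.29).

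Among the recomputed ratios to Cd68, 1090 kept their sign and 32 did not, and none passed. With all mice, the smallest raw p that the permutation test allows was 0.0159 to 0.0571, depending on the comparison. After adjustment a pass was hardly possible, so the lack of a pass says little about the ratios. Leaving out mice gave Csf1r (-0.07 to 0.11), Mrc1 (-0.01 to 0.69), Cd163 (-0.48 to 0.17) and Arg1 (-0.26 to 0.48) in BCC against healthy, Adgre1 (-0.14 to 0.08) in laser against healthy, Trem2 (-0.67 to 0.02) in vismodegib against healthy, and Arg1 (-1.04 to 0.63) and Gpnmb (-0.97 to 0.37) in laser against vismodegib. A pseudocount of 1 CPM gave Adgre1 at -0.02 (laser against healthy) and Arg1 at 0.02 (BCC against healthy), and the first library of each mouse gave Arg1 at 0.02 there and at 0.11 in laser against vismodegib. With Adgre1 as the denominator Csf1r stood at -0.19 (BCC against healthy) and Nos2 at 0.08 (vismodegib against healthy). With Csf1r as the denominator Adgre1 stood at 1.21 (laser against BCC), 0.10 (vismodegib against BCC) and 0.29 (vismodegib against healthy), Mrc1 at 0.19 (laser against BCC) and 0.42 (laser against healthy), Arg1 at 0.64 and Gpnmb at 0.20 (laser against vismodegib), Nos2 at 0.14 (laser against healthy) and 0.37 (vismodegib against healthy), and Trem2 at 0.21 (vismodegib against healthy). Depth limits Chil3 and Chil4 in untreated skin, where few counts set the level.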
